A study of Caenorhabditis elegans with 14 samples.

Results

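The cathepsin B-like cysteine protease genes cpr-1, cpr-3, cpr-4, cpr-5 and cpr-6 and the aspartic protease genes asp-1, asp-3, asp-4, asp-5 and asp-6 of Caenorhabditis elegans were followed in whole worms with and without a daf-19 mutation. They were taken by symbol from the annotation of an Affymetrix array, which measured all 10, among 17118 genes with a probe set of their own. A probe set is a group of short probes read as 1 value. The 10 genes had 14 probe sets that name a single gene: cpr-3, asp-4, asp-5 and asp-6 had 2 each and the other 6 genes had 1.

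Cathepsins are proteases that cut proteins at acid pH. The cpr proteins use a cysteine in the active site and the asp proteins, relatives of cathepsin D and pepsin, use a pair of aspartates. In worms such enzymes digest bacterial protein in the gut lumen and break down proteins in lysosomes, and the intestine is known as a main site of their expression. Whole worms do not show the tissue, so the intestinal source of these signals was not measured.

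The groups were 3 arrays of adult daf-19 mutants (genotype labelled daf-19 with daf-12), 3 of adult controls (daf-12), 4 of mutants at the first larval stage (L1) and 4 of L1 controls. Both genotypes carried a daf-12 mutation, so the contrast is one of daf-19 in a daf-12 background; the source names call the controls wild type for daf-19, and the alleles are not named. The labels call the replicates biological. They name the adults young adults, whereas the growth protocol gives 50 hours past the L4 stage. As background, the product of daf-19 is an RFX-type transcription factor needed for genes of sensory cilia, and the series asks which expression it controls at several stages.

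Values are deposited log2 signals, for which no detection calls were used here; a probe set's level depends on its probes, so levels are compared only within a probe set. No member probe set lay below the lower quartile of signal on all arrays of a group. Array medians were 5.92 to 5.96 in adult mutants and 5.91 to 6.02 in adult controls, 4.73 to 4.76 in L1 mutants and 4.72 to 4.76 in L1 controls. Both probe sets of daf-19 itself lay lower in every mutant array than in every control array of the same stage. The 3' minus 5' signal of Gapdh, a measure of RNA quality, was 3.83 to 4.12 in L1 mutants and 3.16 to 3.83 in L1 controls, and -0.54 to -0.39 in adult mutants and -0.44 to -0.36 in adult controls. In whole animals, fewer cells of a type and less RNA per cell cannot be told apart.

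**Figure D1:**
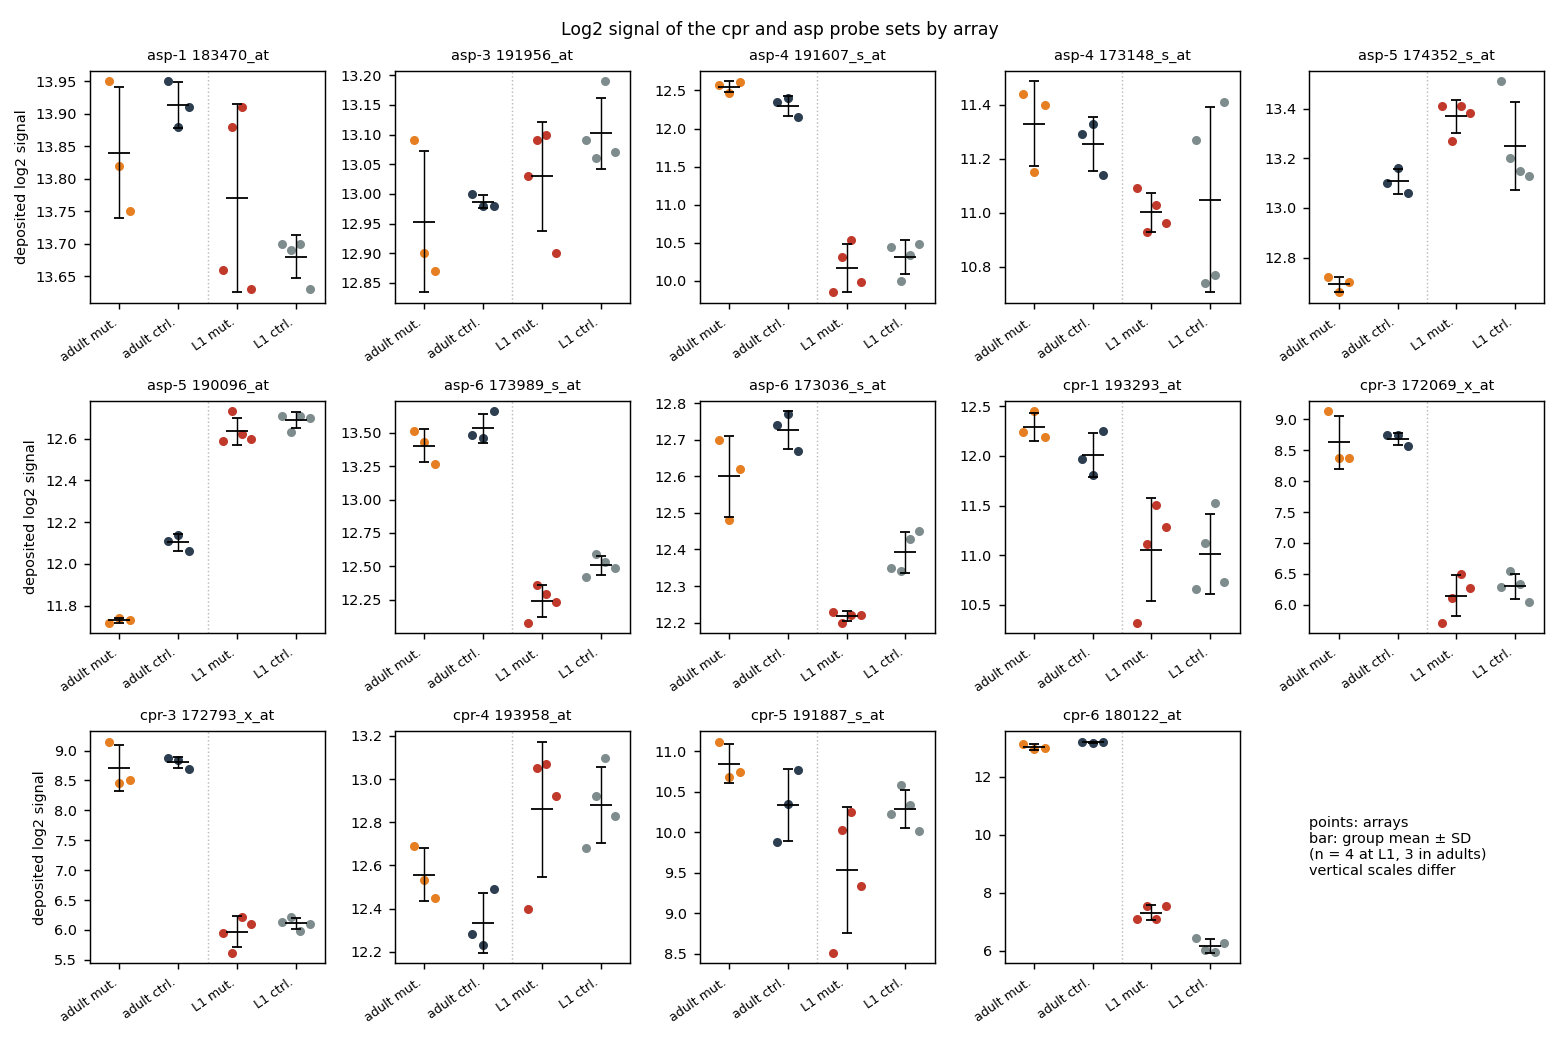
Deposited log2 signal (vertical axes, which differ between panels) of each of the 14 probe sets in adult mutant, adult control, L1 mutant and L1 control arrays; points are arrays, and bars give the group mean ± SD (n = 3 in adults, n = 4 at L1). The L1 mutant arrays of cpr-6 sit between 7.08 and 7.55, all above the L1 control arrays, and the adult mutant arrays of asp-5 sit below the adult control arrays in both of its probe sets.

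At L1 the gene cpr-6, which encodes a cathepsin B-like cysteine protease, rose 2.22-fold in the mutants. Its probe set read 7.08, 7.53, 7.10 and 7.55 in the L1 mutant arrays, against 6.45, 6.01, 5.94 and 6.27 in the L1 control arrays. The groups did not overlap, and the lowest mutant array lay above the highest control array. The means were 7.32 ± 0.26 in mutants and 6.17 ± 0.24 in controls (SD, n = 4 each). The log2 fold change was 1.15 (SE 0.13, 95% confidence interval 0.87 to 1.43, limma adjusted p = 0.000231). Under 24 alternatives it lay between 1.03 and 1.27, with adjusted p between 9.31e-05 and 0.0115. The lowest value, 1.03, came from a fit with this Gapdh measure as covariate, under which the call remained (adjusted p = 0.0113).

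Of the 14 member probe sets, cpr-6 was the 1 that passed at L1, where 1.14% of all 22548 probe sets tested were called. Without adjustment 1 member probe set was higher and 3 were lower at L1. The median log2 fold change over the 14 was -0.06, against 0.01 over all probe sets. Mutant and control arrays did not overlap for 3 member probe sets at L1 (cpr-6 higher and both of asp-6 lower), and they did not overlap for 4.38% of all probe sets. Of the 9 measured intestine markers none was called at L1, and their mean log2 signal was 8.23 to 8.66 in mutant arrays and 8.35 to 8.53 in control arrays. None of those markers lay below the lower quartile on all arrays of a group. The 10 hypodermis markers averaged 6.55 to 6.77 in L1 mutant arrays and 6.79 to 6.87 in L1 controls. The 4 coelomocyte markers averaged 5.49 to 5.7 and 5.72 to 5.87. Neither list's means overlapped between genotypes, and none of these markers was called. Without adjustment 3 hypodermis markers and 1 coelomocyte marker were lower at L1, and 2 intestine markers were higher and 1 lower. The part of these tissues in the value of cpr-6 was not tested.

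In adults the values of cpr-6 did not pass. The probe set read 13.15, 12.95 and 13.01 in adult mutants, against 13.20, 13.16 and 13.21 in adult controls. Each mutant array lay below each control array, by as little as 0.01. The log2 fold change was -0.15 (SE 0.15, 95% confidence interval -0.48 to 0.17, adjusted p = 0.999).

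The genotype effect on cpr-6 differed between the stages. The effect in adults minus that at L1 was -1.30 (SE 0.20, limma interaction adjusted p = 0.00452), the 1 member probe set called for this difference against 0.914% of all probe sets. It lay between -1.40 and -1.16 over 23 alternatives and passed in all but 1: with Gapdh as covariate the value was -1.16 (adjusted p = 0.05002).

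In adults the gene asp-5, an aspartic protease gene, fell in 1 of its 2 probe sets. The probe set 190096_at read 11.72, 11.74 and 11.73 in adult mutants, against 12.11, 12.14 and 12.06 in adult controls. The groups were 0.32 apart at their nearest arrays, and the mutant arrays spanned 0.02. The log2 fold change was -0.37 (SE 0.07, 95% confidence interval -0.53 to -0.22, limma adjusted p = 0.02), a signal 1.30-fold lower.

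The other probe set of asp-5, 174352_s_at, lay lower in adult mutants by a similar amount and did not pass. It read 12.72, 12.66 and 12.70 in adult mutants, against 13.10, 13.16 and 13.06 in adult controls. Here too every mutant array was below every control array. The log2 fold change was -0.41 (SE 0.10, 95% confidence interval -0.62 to -0.20, adjusted p = 0.0676). Names ending in _s_at or _x_at, as for 8 of the 14 probe sets, mark probes that may match more than 1 transcript.

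The adult call of asp-5 depended on single arrays, whereas the size of the difference stayed between -0.40 and -0.35 over 24 alternatives. For 190096_at the adjusted p was 0.0946 without adult mutant array 1, 0.0709 without 2 and 0.0791 without 3. It was 0.119 without adult control array 2 and 0.0611 without 3. The call also ended with array medians subtracted (0.054), with only the adult groups in the fit (0.0698) and with replicate numbers as a block at both stages (0.0593). For 174352_s_at the call was gained without L1 control array 1 (0.016), with L1 replicate pairs as a block (0.0441), with a trended, robust variance (0.0408) and with array weights (0.000506).

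At L1 neither probe set of asp-5 passed. The probe set 190096_at read 12.59, 12.73, 12.62 and 12.60 in L1 mutants, against 12.71, 12.63, 12.71 and 12.70 in L1 controls, a log2 fold change of -0.05 (95% confidence interval -0.19 to 0.08). The probe set 174352_s_at read 13.41, 13.27, 13.41 and 13.38 in L1 mutants, against 13.51, 13.20, 13.15 and 13.13 in L1 controls, a log2 fold change of 0.12 (95% confidence interval -0.06 to 0.30). Genotypes overlapped in both, and L1 control array 1 was the highest of its group in 174352_s_at. The adult effect minus the L1 effect was -0.32 (adjusted p = 0.183) for 190096_at and -0.53 (adjusted p = 0.0811) for 174352_s_at. The second passed without L1 control array 1 (-0.62, adjusted p = 0.00884), with L1 replicate pairs as a block (-0.53, 0.0437) and with array weights (-0.62, 0.00404), and the first with array weights (-0.34, 0.0359).

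Over all members 1 of 14 probe sets was called in adults, where 1.02% of all probe sets were. The median log2 fold change of the 14 was -0.07, against 0.02 over all probe sets. Mutant and control arrays did not overlap for 4 member probe sets in adults (both of asp-5 and that of cpr-6 lower, 1 of asp-4 higher), and they did not overlap for 13.3% of all probe sets. The mean log2 signal of the 9 measured intestine markers was 8.93 to 8.96 in adult mutant arrays and 8.99 to 9.31 in adult control arrays. That of the 10 hypodermis markers was 8.65 to 8.81 in adult mutants and 8.67 to 9.51 in adult controls. The intestine means did not overlap, 2 of its markers and 6 of the hypodermis were lower without adjustment, none was called, and their part in the values of asp-5 was not tested.

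**Figure D2:**
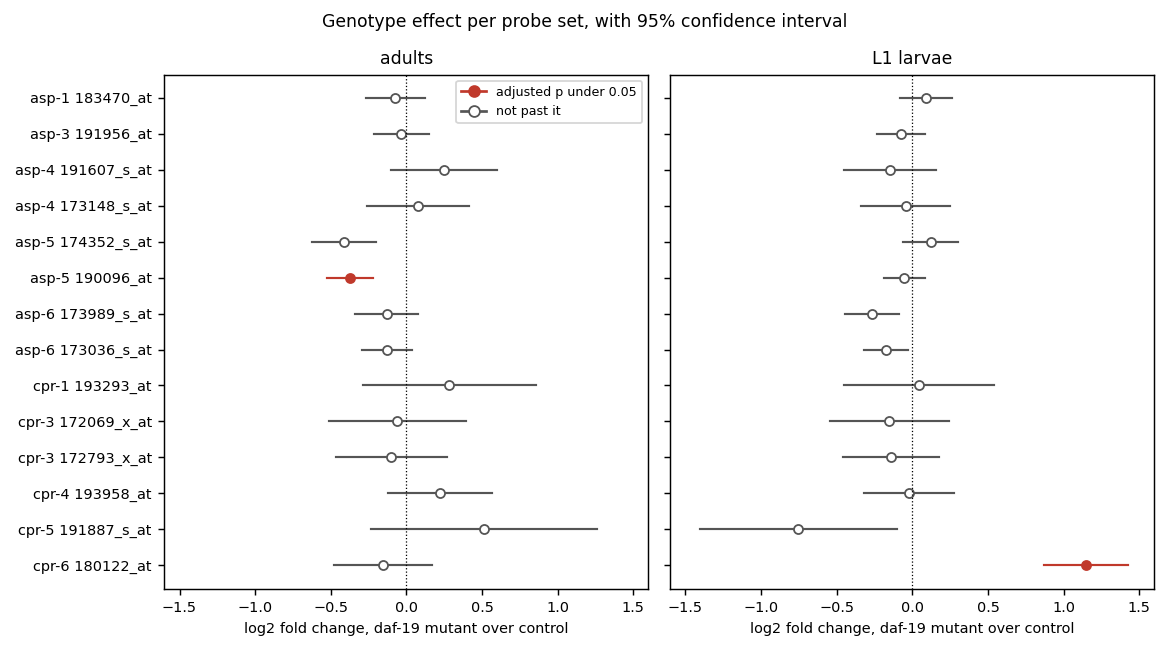
Log2 fold change of mutant over control (horizontal axes) for each probe set, in adults (left) and L1 larvae (right), with 95% confidence intervals; filled red points passed an adjusted p of 0.05. The 2 filled points are asp-5 190096_at in adults (-0.37) and cpr-6 at L1 (1.15).

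The gene asp-6, another aspartic protease gene, lay slightly lower in the L1 mutants in both probe sets, without passing. The probe set 173989_s_at read 12.08, 12.36, 12.29 and 12.23 in L1 mutants, against 12.42, 12.59, 12.53 and 12.49 in L1 controls. The log2 fold change was -0.27 (SE 0.08, adjusted p = 0.202). The probe set 173036_s_at read 12.23, 12.20, 12.22 and 12.22 in L1 mutants, against 12.35, 12.34, 12.43 and 12.45 in L1 controls, a difference of -0.17 log2 (SE 0.07, adjusted p = 0.358). No mutant array reached a control array in either. In adults the values were -0.13 for both (adjusted p = 0.99 and 0.897), with overlapping groups. Over the 24 alternatives at L1 neither passed, and the smallest adjusted p was 0.108 for 173989_s_at and 0.278 for 173036_s_at.

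In the RefSeq annotation (assembly WBcel235) asp-6, asp-12, asp-5 and asp-11 follow each other as neighbouring genes. The gene asp-11, likewise no member, had overlapping groups in adults and a log2 fold change of -0.15 (SE 0.23, limma adjusted p = 0.999). Its signal was low, with means of 4.03 in adult mutants and 4.18 in adult controls. The lowest adult array median was 5.91, so a fall in asp-11 could be hard to see. The gene asp-12, a further aspartic protease gene that is no member, read 7.17, 7.11 and 7.16 in adult mutants, against 7.66, 7.49 and 7.35 in adult controls. Its groups did not overlap in adults, and its log2 fold change of -0.35 (SE 0.14) did not pass (adjusted p = 0.494). How far the probes of these neighbours match each other's transcripts is unknown, because probe sequences were not used here.

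The genes asp-3 and asp-4, which encode cathepsin D-like lysosomal proteases known to act in necrotic death of worm neurons, did not pass at either stage. The values of asp-3 were 13.09, 12.90 and 12.87 in adult mutants, against 13, 12.98 and 12.98 in adult controls. At L1 they were 13.03, 13.09, 13.10 and 12.90 in mutants, against 13.09, 13.06, 13.19 and 13.07 in controls. Groups overlapped at both stages, and the confidence intervals of the log2 fold change ran from -0.22 to 0.15 in adults and from -0.23 to 0.09 at L1.

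The probe set 191607_s_at of asp-4 read 12.57, 12.47 and 12.61 in adult mutants, against 12.35, 12.40 and 12.15 in adult controls, without overlap and without passing (0.25, SE 0.16, adjusted p = 0.931). At L1 it spanned 9.85 to 10.54 in mutants and 10 to 10.49 in controls. The other probe set, 173148_s_at, overlapped at both stages, with log2 fold changes of 0.08 in adults and -0.04 at L1. In it the L1 control arrays split, at 11.27 and 11.41 in arrays 1 and 4 and 10.74 and 10.77 in arrays 2 and 3.

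The gene asp-1, an aspartic protease gene known for intestinal expression, did not pass at either stage. It read 13.95, 13.82 and 13.75 in adult mutants, against 13.95, 13.88 and 13.91 in adult controls. At L1 it read 13.66, 13.88, 13.91 and 13.63 in mutants, against 13.70, 13.69, 13.70 and 13.63 in controls. Genotypes overlapped at both stages, with log2 fold changes of -0.07 in adults and 0.09 at L1 (adjusted p = 0.999 and 0.844).

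Among the other cysteine protease genes, cpr-5 had the largest differences, and also the largest spread. It read 8.51, 10.03, 10.25 and 9.34 in L1 mutants, against 10.22, 10.58, 10.33 and 10.02 in L1 controls. Mutant array 1 was the lowest, and mutant arrays 2 and 3 lay within the range of the controls. The log2 fold change was -0.75 (SE 0.30, 95% confidence interval -1.41 to -0.11, adjusted p = 0.395), and -0.41 without L1 mutant array 1. In adults it read 11.12, 10.68 and 10.74 in mutants, against 9.88, 10.35 and 10.77 in controls. That difference was 0.51 (SE 0.35, adjusted p = 0.95), and 0.29 without adult control array 1. The adult effect minus the L1 effect was 1.27 (SE 0.46, adjusted p = 0.361), so the opposite signs did not pass as a difference.

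The genes cpr-1, cpr-3 and cpr-4 overlapped between genotypes at both stages. The gene cpr-4, known in worms as a secreted cathepsin B, read 12.69, 12.53 and 12.45 in adult mutants, against 12.28, 12.23 and 12.49 in adult controls. Its log2 fold change was 0.22 in adults (adjusted p = 0.968) and -0.02 at L1 (adjusted p = 0.989). For cpr-1, a gut-expressed cysteine protease gene, it was 0.28 in adults (SE 0.27) and 0.04 at L1 (SE 0.23).

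Both probe sets of cpr-3 gave small negative values, -0.06 and -0.10 in adults and -0.15 and -0.14 at L1. Adult mutant array 1 read 9.13 and 9.15 in them, against 8.37 to 8.51 in the other adult mutant arrays and 8.57 to 8.87 in the adult controls. The standard errors of all 14 probe sets ran from 0.07 to 0.35 in adults and from 0.06 to 0.30 at L1, so a change of the size seen in asp-5 would not have passed in the members with the largest errors.

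Several arrays of both genotypes lay to one side of their group's mean over the members. Adult mutant array 1 was above it in 12 of the 14 probe sets (median deviation 0.11 log2, against 0.02 over all probe sets), and adult mutant arrays 2 and 3 were below it in 11 and 9 (-0.07 and -0.09, against 0.01 and -0.02). L1 mutant array 3 was above it in 12 (0.10, against 0.01), and L1 mutant array 1 was below it in 10 (-0.14, against -0.02). Among controls, L1 array 3 was above its group's mean in 10 (0.022) and L1 array 4 below it in 9 (-0.025). Adult control array 1 was above it in 9 (0.012) and adult control array 3 below it in 9 (-0.025). L1 mutant array 1 was the lowest of its group for cpr-1 (10.32, against 11.11 to 11.51 in the others), cpr-4 (12.40, against 12.92 to 13.07) and cpr-5. L1 control array 1 was likewise the lowest of its group for cpr-1 (10.66) and cpr-4 (12.68). Without L1 mutant array 1 the log2 fold change of cpr-6 at L1 was 1.23 and still passed (adjusted p = 0.000266).

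**Figure D3:**
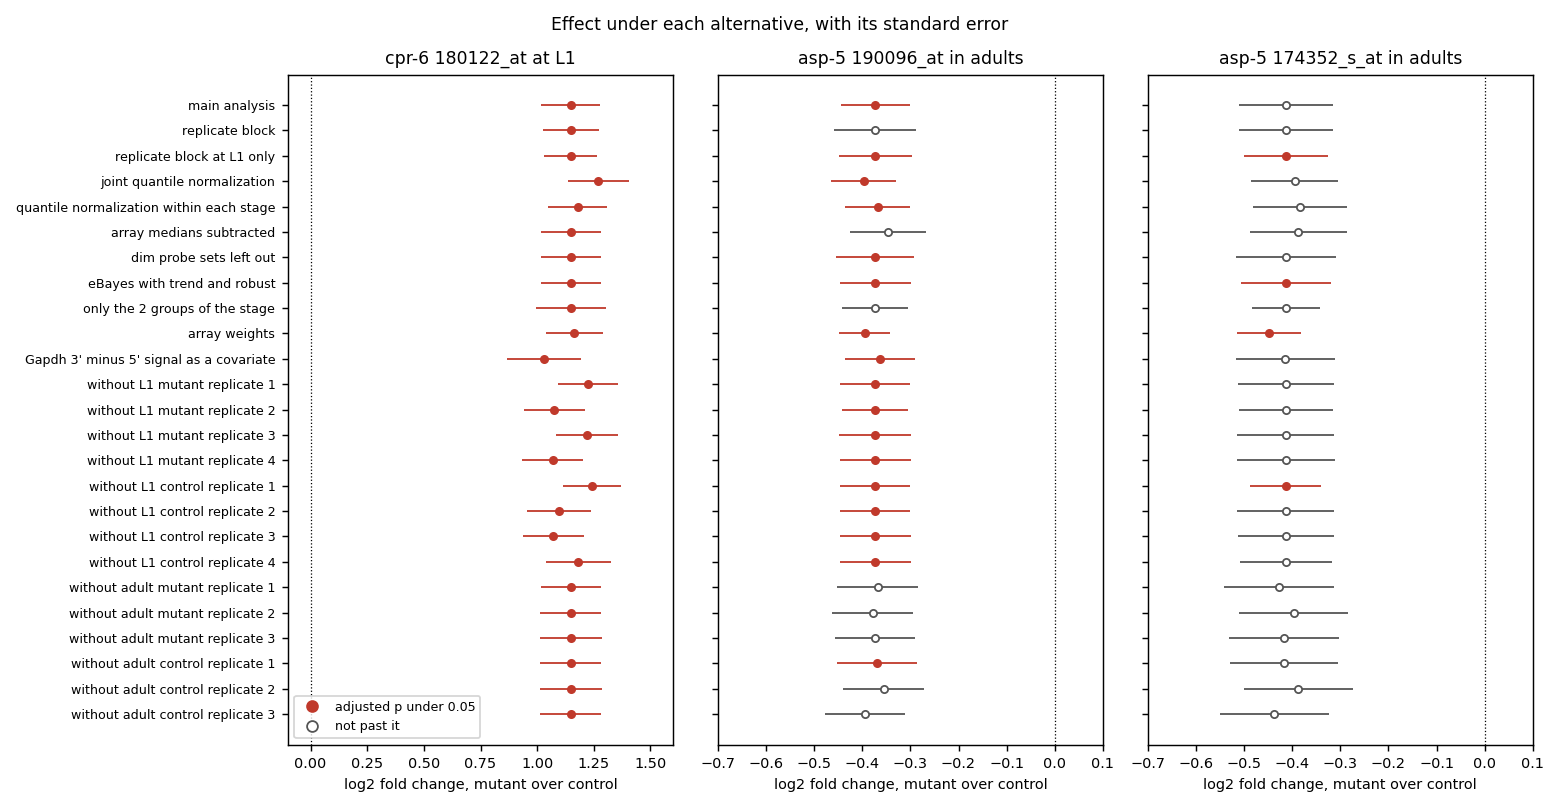
Log2 fold change of mutant over control with its standard error (horizontal axes) for cpr-6 at L1 and for both probe sets of asp-5 in adults, in the main analysis (top row) and under each alternative; filled red points passed an adjusted p of 0.05. The points for cpr-6 are filled in every row, those of asp-5 190096_at lie between -0.40 and -0.35 and are filled in some rows only.

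Genes that work beside these proteases were followed on 7 lists, each gene by its brightest probe set, where 1.06% of all 17118 genes were called in adults and 1.22% at L1. By that rule no member gene is called in adults, because the brighter probe set of asp-5, 174352_s_at, did not pass there (limma adjusted p = 0.0676). Among 16 other cysteine cathepsin genes 0 were called in adults by limma (0 higher and 1 lower without adjustment) and 1 fell at L1, cpr-2. It read 5.32, 5.72, 5.58 and 5.44 in L1 mutants, against 5.93, 5.96, 6.32 and 5.91 in L1 controls (log2 fold change -0.51, SE 0.11, adjusted p = 0.0332). Without adjustment 1 was higher and 2 were lower at L1. The largest difference there, in cpr-8, was -1.16 (SE 0.31), with groups that did not overlap, and did not pass (limma adjusted p = 0.103). The list's median was -0.01 in adults and 0.02 at L1. The call of cpr-2 ended without any of 9 of the 14 arrays (adjusted p = 0.0524 to 0.0882), which were L1 mutant arrays 1, 3 and 4, L1 control arrays 2, 3 and 4, adult mutant array 1 and adult control arrays 2 and 3. It was also lost in a fit of the L1 groups alone (0.157), quantile normalization within each stage (0.0663) and the Gapdh covariate (0.141).

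Among 10 other aspartic protease genes 0 were called in adults by limma (1 higher and 1 lower without adjustment) and 1 rose at L1, asp-14. It read 10.57, 10.79, 10.53 and 10.51 in L1 mutants, against 9.78, 9.04, 9.60 and 10.12 in L1 controls (log2 fold change 0.97, SE 0.18, adjusted p = 0.0176). Without adjustment 1 gene of the list was higher and 1 lower at L1. The list's median was 0.06 in adults and 0.09 at L1. With the Gapdh covariate the value of asp-14 at L1 was 0.59 (adjusted p = 0.265). The call ended without L1 control array 3 (0.0513) and in a fit of the L1 groups alone (0.0993). The adult groups of asp-14 overlapped (-0.20, SE 0.21, adjusted p = 0.999). Its adult effect minus the L1 effect, -1.165, did not pass (limma interaction adjusted p = 0.0755) and passed in 2 of 23 alternatives. In adults asp-17 lay higher in the mutants by 1.16 (SE 0.27) and did not pass (adjusted p = 0.0639).

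On the list of lysosomal membrane, hydrolase and biogenesis genes, 2 of 33 fell in adults and 1 rose at L1. Without adjustment 2 were higher and 4 lower in adults, and 5 higher and 3 lower at L1. The gene hex-1, which encodes a beta-hexosaminidase, read 9.11, 9.44 and 9.22 in adult mutants, against 9.84, 9.98 and 10 in adult controls (-0.68, SE 0.14, adjusted p = 0.0295). The carboxypeptidase gene pcp-4 read 6.27, 5.95 and 5.92 in adult mutants, against 6.88, 6.57 and 6.64 in adult controls (-0.65, SE 0.13, adjusted p = 0.023). Both groups of 3 stood clear of each other in each gene.

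Both adult calls rested on single arrays. For hex-1 the adjusted p was 0.174 and 0.128 without adult mutant arrays 1 and 3, and 0.154 and 0.136 without adult control arrays 2 and 3. For pcp-4 it was 0.112 and 0.126 without adult mutant arrays 2 and 3, and 0.056 and 0.0731 without adult control arrays 2 and 3. The call of pcp-4 was also lost after joint (-0.51, 0.18) or per-stage (0.0534) quantile normalization and in a fit of the adult groups alone (0.0849). The adult effect minus the L1 effect passed for pcp-4 (-0.77, adjusted p = 0.0499), a call lost in 17 of 23 alternatives.

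At L1 the gene ppt-1, for a palmitoyl protein thioesterase, read 6.33, 5.30, 5.77 and 5.72 in mutants, against 4.60, 4.50, 4.59 and 4.72 in controls (1.18, SE 0.17, adjusted p = 0.00174). Every L1 mutant array of ppt-1 lay above every L1 control array. The L1 control readings were low, each below its array's median (4.72 to 4.76). In adults ppt-1 read 6.46, 6.14 and 6.26 in mutants, against 5.91, 6.28 and 6.00 in controls, with overlapping groups and no call. Its adult effect minus the L1 effect did not pass in the main fit and passed in 2 of 23 alternatives. The list's median was -0.07 in adults and 0.11 at L1.

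Of 19 vacuolar ATPase genes, which acidify lysosomes and the gut, 0 were called at either stage by limma (0 higher and 1 lower without adjustment at each stage), at medians of -0.08 in adults and 0.00 at L1. Of 22 genes of intestinal identity and the brush border 0 were called at either stage (2 higher and 1 lower without adjustment in adults, 2 higher and 2 lower at L1), at medians of -0.12 and -0.05. Among 12 gut lumen digestion and antibacterial genes 0 were called in adults (2 higher and 1 lower without adjustment) and the lysozyme gene ilys-3 rose at L1, by 1.11 (SE 0.21, adjusted p = 0.0179), a call lost without L1 control array 4 (0.93, 0.0551), with the Gapdh covariate (0.0966) and in a fit of the L1 groups alone (0.134). Both measured cystatin genes, cpi-1 and cpi-2, inhibitors of cysteine proteases, overlapped between genotypes at L1. In adults neither gene's groups overlapped, as for 13.3% of all probe sets. The log2 fold changes were -0.60 (adjusted p = 0.664) and 0.08 (adjusted p = 0.999). For cpi-2 the lowest adult mutant array read 11.98 and the highest adult control array 11.96.

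**Figure D4:**
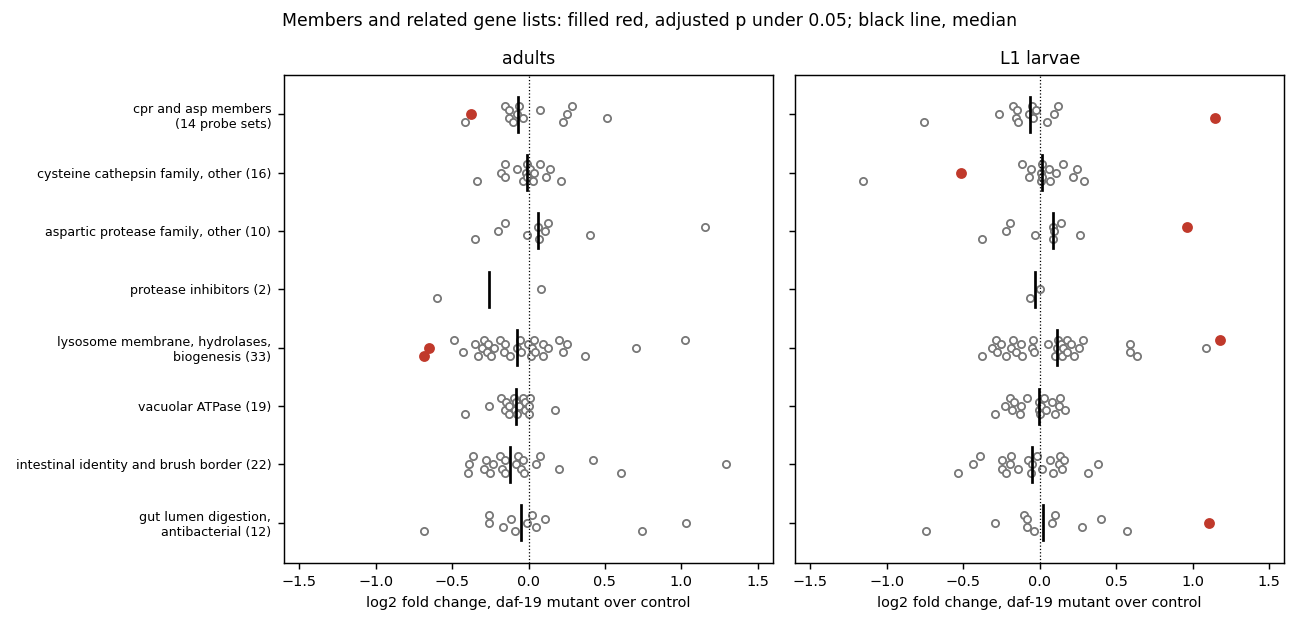
Log2 fold change of mutant over control (horizontal axes) in adults (left) and L1 larvae (right) for the 14 member probe sets (top row) and for the measured genes of 7 related lists, whose number is in brackets; black lines are medians, and filled red points passed an adjusted p of 0.05. In adults the filled points are asp-5 190096_at, pcp-4 and hex-1, all lower. The brighter probe set of asp-5, 174352_s_at, is not filled there. At L1 the filled points are cpr-6, asp-14, ppt-1 and ilys-3, higher, and cpr-2, lower.

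Between the stages cpr-6 was higher in adults in both genotypes. Its deposited values were 12.95 to 13.15 in adult mutants and 13.16 to 13.21 in adult controls, and 7.08 to 7.55 in L1 mutants and 5.94 to 6.45 in L1 controls. Relative to the array medians the log2 difference, adult minus L1, was 4.52 in mutants (SE 0.14) and 5.80 in controls (SE 0.14). It lay between 4.26 and 5.72 in mutants and between 5.66 and 7.02 in controls over 18 alternatives, the other scalings of the arrays included, and passed in all of them.

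The stages appear to have been scaled apart, so these differences were read against the background and under each scaling. The stages also differed in the 3' minus 5' signal of Gapdh. It was 3.83 to 4.12 in L1 mutants and 3.16 to 3.83 in L1 controls, and -0.54 to -0.39 in adult mutants and -0.44 to -0.36 in adult controls. No scaling of whole arrays adjusts for this gap, and its part in the stage differences was not tested. With array medians subtracted 85.1% of all probe sets were called between stages in mutants and 86.2% in controls, so a called stage difference is no distinction. The median over all probe sets was -0.29 in mutants and -0.33 in controls with array medians subtracted. Of the member probe sets, 4 were called higher and 7 lower in adult mutants than in L1 mutants, and 4 higher and 8 lower in adult controls than in L1 controls.

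Besides cpr-6, both probe sets of cpr-3 were higher in adults under each scaling. They read 8.37 to 9.15 in adult mutants and 8.57 to 8.87 in adult controls, and 5.62 to 6.50 in L1 mutants and 5.99 to 6.54 in L1 controls. Relative to the array medians the values were 1.28 and 1.53 in mutants and 1.16 and 1.47 in controls, of which 172069_x_at in controls did not pass after joint quantile normalization (0.45, adjusted p = 0.0648).

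Both probe sets of asp-5 were lower in adults than at L1 under each scaling. For 190096_at the difference was -2.11 in mutants and -1.81 in controls relative to the array medians, and -0.90 and -0.58 in the deposited values. For 174352_s_at it was -1.88 in mutants and -1.37 in controls, and -0.67 and -0.14 in the deposited values, the last not passing (adjusted p = 0.157). The gene cpr-4 lay lower too, by -1.51 in mutants and -1.78 in controls, and by -0.30 (adjusted p = 0.0684) and -0.55 as deposited. For asp-3 the values were -1.28 and -1.34, and -0.08 and -0.12 as deposited, where neither passed (adjusted p = 0.368 and 0.179).

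The 2 probe sets of asp-4 disagreed between stages. Relative to the array medians 191607_s_at was higher in adults, by 1.18 in mutants and 0.75 in controls, and 173148_s_at was lower, by -0.87 and -1.02. In the deposited values the second turned to 0.33 in mutants and 0.21 in controls. No direction is given for asp-1, asp-6, cpr-1 and cpr-5, whose sign in at least 1 genotype turned with the scaling.

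**Figure D5:**
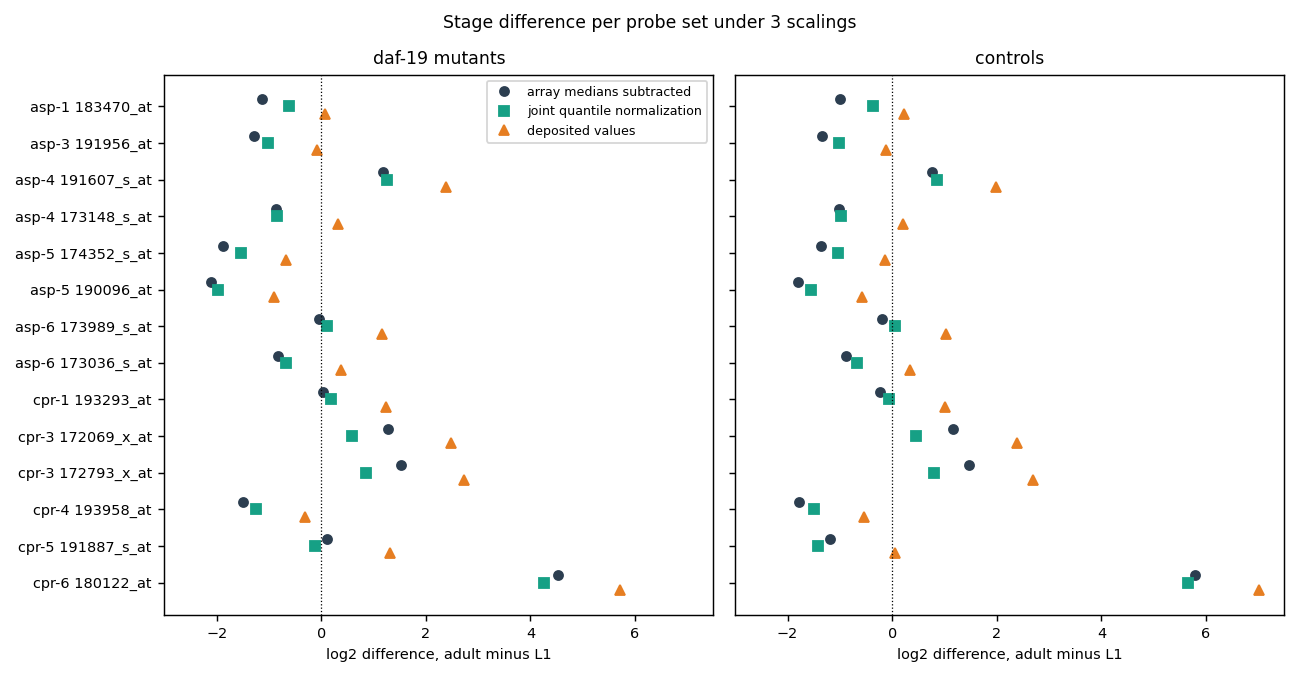
Log2 difference of adult minus L1 arrays (horizontal axes) for each probe set in mutants (left) and controls (right), under 3 scalings of the arrays shown by marker shape. The markers of cpr-6 lie beyond 4 in both panels under each scaling, while those of asp-1 and of both asp-6 probe sets fall on both sides of 0 in each panel.

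Likeness to the called members was measured by Pearson's r over the 14 arrays with each stage's mean removed, as a description, since the arrays share a normalization and the values hold the genotype effect. The 3 genes most like cpr-6 were nssp-55 (r = 0.95), cfap-36 (0.94) and ndua-7 (0.93). Of these nssp-55 rose at L1 by 2.22 (adjusted p = 9.28e-06) and cfap-36 by 0.59 (adjusted p = 0.00677), with -0.25 and 0.00 in adults. The 3 genes most like asp-5 190096_at were Y51H7C.1 (r = 0.94), W06A11.4 (0.93) and irg-5 (0.93). All of these fell in adults, with log2 fold changes of -1.88, -1.24 and -3.34 (adjusted p = 0.000114, 0.000145 and 1.23e-08), and none passed at L1.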

How the data were processed

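The authors deposited log2 signals per probe set for 14 arrays, the scale being read from the values. Labelled cRNA came from 6 ug of total RNA, per the labels' protocols. How the arrays were background-corrected, summarised and normalized is not stated in the labels or headers. After removal of 77 control probe sets, 22548 were tested, of which the platform annotation gave 1 gene for 20766, several for 887 and none for 895.

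One limma 3.58.1 model (R 4.3.3, lmFit and eBayes) with 4 group means used all arrays, with 10 residual and 4.18 prior degrees of freedom. Two-sided p-values were adjusted (Benjamini-Hochberg) over all tested probe sets, at a threshold of 0.05. Stage contrasts were fitted after each array's median was subtracted. The number of arrays limits precision. The fit was also run on simulated data with noise drawn independently for each array. That run does not cover arrays that deviate together.

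Same-numbered mutant and control arrays deviated together at L1 (correlations 0.42, 0.32, 0.19 and 0.24, each above 0.1) and not throughout in adults (0.44, 0.11 and 0.04). The numbers were therefore taken to pair the L1 arrays, from the data and not the labels. Replicate numbers entered only the alternatives with a block. The main model held no pairing, so the main tests at L1 are unpaired.

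Members, lists and tests were chosen with earlier results of these data known. Every member probe set was named. From each list and genotype contrast up to 4 genes past the threshold, or the 2 with the smallest p, could be named. The genes asp-11 and cpr-8 were named outside this rule. Alternatives were a replicate block, 3 normalizations, a filter on dim probe sets, a trended, robust variance, single-stage fits, array weights, a Gapdh covariate and leaving out each array. A block at L1 only was added after seeing the data. No sequences were analysed here.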

Additional observations from a re-analysis of the deposited data

Results flagged for a closer look

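The genotype effect on cpr-6 in adults minus that at L1 was -1.30 (SE 0.20, limma interaction adjusted p = 0.00452), so the effects at the 2 stages differed by a test of the difference itself.

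Of 28 L1 groups of 4 arrays tested for an outlying array, 2 held one. L1 control array 4 read 13.63 for asp-1, against 13.69 to 13.70 in the other controls, and L1 control array 2 read 12.63 for asp-5 190096_at, against 12.70 to 12.71. Chance flags about 1 in 20 such groups, and both gaps were under 0.1 on the log2 scale.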

How the results depend on the processing

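Over 994 checks of member probe sets in the genotype contrasts, 977 kept their side of the threshold, 9 lost a call, 8 gained one and 0 turned a called value round. The count of 1 member called at L1 held in each alternative. In adults the count of 1 became 0 with the replicate block, with array medians subtracted and with only the 2 groups of the stage, and 2 with the block at L1 only, with a trended, robust variance and with array weights; it ranged from 0 to 2 when single arrays were left out. For the difference between stages it became 2 with the block at L1 only, 3 with array weights and 0 with the Gapdh covariate, and it was 1 to 2 when single arrays were left out. The replicate block changed no call of cpr-6.

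In deposited values without centring, the stage difference turned round in mutants for asp-1 (0.07), asp-4 173148_s_at (0.33) and asp-6 (1.16 and 0.38), and in controls for asp-1 (0.23), asp-4 173148_s_at (0.21), asp-6 (1.03 and 0.33), cpr-1 (1.00) and cpr-5 (0.046). The array medians, which this scaling leaves in, differ between the stages.

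Counts over all probe sets (257 at L1, 231 in adults and 206 for the difference between stages) moved as follows. They were 525, 427 and 420 with the replicate block, and 615 at L1 and 332 for the difference with the block at L1 only. A fit of the L1 groups alone gave 98, the Gapdh covariate 95 at L1 and 97 for the difference, and array weights 1996 in adults and 905 for the difference. Leaving out L1 control array 4 gave 153 at L1. Leaving out adult arrays gave 103 (adult control array 2) to 765 (adult control array 1) in adults, and 91 to 562 for the difference with the same arrays.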
